A study of Mus musculus with 2 samples.

Results

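The 64 genes described here are the mouse Wnt ligands, their receptors and co-receptors, the R-spondins and their receptors, the secreted antagonists, the proteins that release Wnts from cells, and the feedback and transcription factors at the inner end of the pathway. They were taken by symbol from the 43346 genes of the deposited tables, and all 64 were found in both tables. The tables came from total RNA-seq of midbrain tissue dissected from healthy embryos of the mouse strain B6NCrl at embryonic day 11.5, males and females pooled. The design has 1 group, untreated, with 2 biological replicates. Tissue of 88 embryos was pooled for replicate 2 and of 109 for replicate 1, so each value is an average over many animals, and the labels give both pools the same donor identifier. Wherever a p-value compares the replicates it compares these 2 libraries, not 2 conditions.

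Wnts are secreted lipid-modified proteins. On a receiving cell a Wnt binds a Frizzled receptor together with Lrp5 or Lrp6, and this stops the breakdown of β-catenin, which then enters the nucleus and activates genes through the TCF/LEF factors. Other Wnts act through Frizzled, Ror and Ryk receptors without β-catenin, on cell polarity and movement. In the embryonic midbrain, Wnt1 is made at the border with the hindbrain and along the dorsal midline, and mice that lack it lose the midbrain.

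The libraries held 45975100 and 38884247 expected counts over genes in replicate 2 and replicate 1, an expected count being the number of reads estimated to come from a gene. Levels between genes are given in TPM, a relative abundance that is scaled by transcript length. The midbrain markers Otx2 (171 TPM in replicate 2 and 169 TPM in replicate 1) and Cnpy1 (101 and 98.9 TPM, in the same order) were abundant, and En1 was present at 6.29 and 4.94 TPM, in the same order. The 5 hindbrain markers, among them Hoxa2 and Egr2, summed to 0.240 TPM in replicate 2 and 0.340 TPM in replicate 1. Among forebrain markers, Lhx2 stood at 47.4 TPM in replicate 2 and 42.4 TPM in replicate 1, Dlx1 at 10.4 and 13.1 TPM, Emx2 at 9.36 and 9.33 TPM and Six3 at 5.11 and 8.13 TPM, in the same order. RNA of other cell types was present: the 6 mesenchyme markers summed to 668 TPM in replicate 2 and 698 TPM in replicate 1, the 5 endothelial markers to 93.9 and 93.0 TPM, and the 5 erythroid markers to 13009 and 12937 TPM. Which cells made the Wnt genes' RNA therefore cannot be told from these bulk libraries, in which fewer cells of a type and less RNA per cell cannot be told apart either.

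Of the 64 genes, 49 reached 1 TPM in both libraries (76.6%), against 58.2% of the 21474 protein-coding genes. Their median level was 6.78 ± 1.29 TPM (SD of the medians of the 2 libraries, n = 2), against 3.46 ± 0.0212 TPM over all protein-coding genes. The median of the 64 genes was 7.56 TPM in replicate 2 and 5.74 TPM in replicate 1. In sum the 64 genes took 1072 TPM in replicate 2 and 1018 TPM in replicate 1. The TPM was spread unevenly over the genes. Tcf7l2 alone held 28.3 ± 0.198% of the summed TPM (SD, n = 2), the 3 highest genes, Tcf7l2, Wls and Sfrp2, held 48.0 ± 0.223%, and the 10 highest held 69.3 ± 0.956%. The 10 highest were these 3 with Lef1, Fzd3, Wnt7b, Sfrp1, Wnt5a, Nkd1 and Fzd2, so that the list spans transcription factors, a carrier, antagonists, receptors, ligands and a feedback inhibitor.

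The 11 classes differed in level. The 4 TCF/LEF factors summed to 370 ± 16.0 TPM, the 2 release proteins to 147 ± 2.16 TPM, the 11 secreted antagonists to 143 ± 3.29 TPM, the 10 Frizzled receptors to 126 ± 2.04 TPM and the 19 Wnt ligands to 107 ± 7.94 TPM (SD, n = 2 for each sum). The 4 R-spondins, with 28.0 ± 4.22 TPM, and their 3 receptors, with 18.3 ± 0.693 TPM, were lower. Among the ligands the median gene stood at 1.44 ± 0.467 TPM, against 5.80 ± 0.573 TPM among the Frizzled receptors (SD, n = 2). Of the ligands 11 of 19 reached 1 TPM in both libraries (57.9%), which is close to the 58.2% of all protein-coding genes, and of the Frizzled receptors 9 of 10 did.

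**Figure D1:**
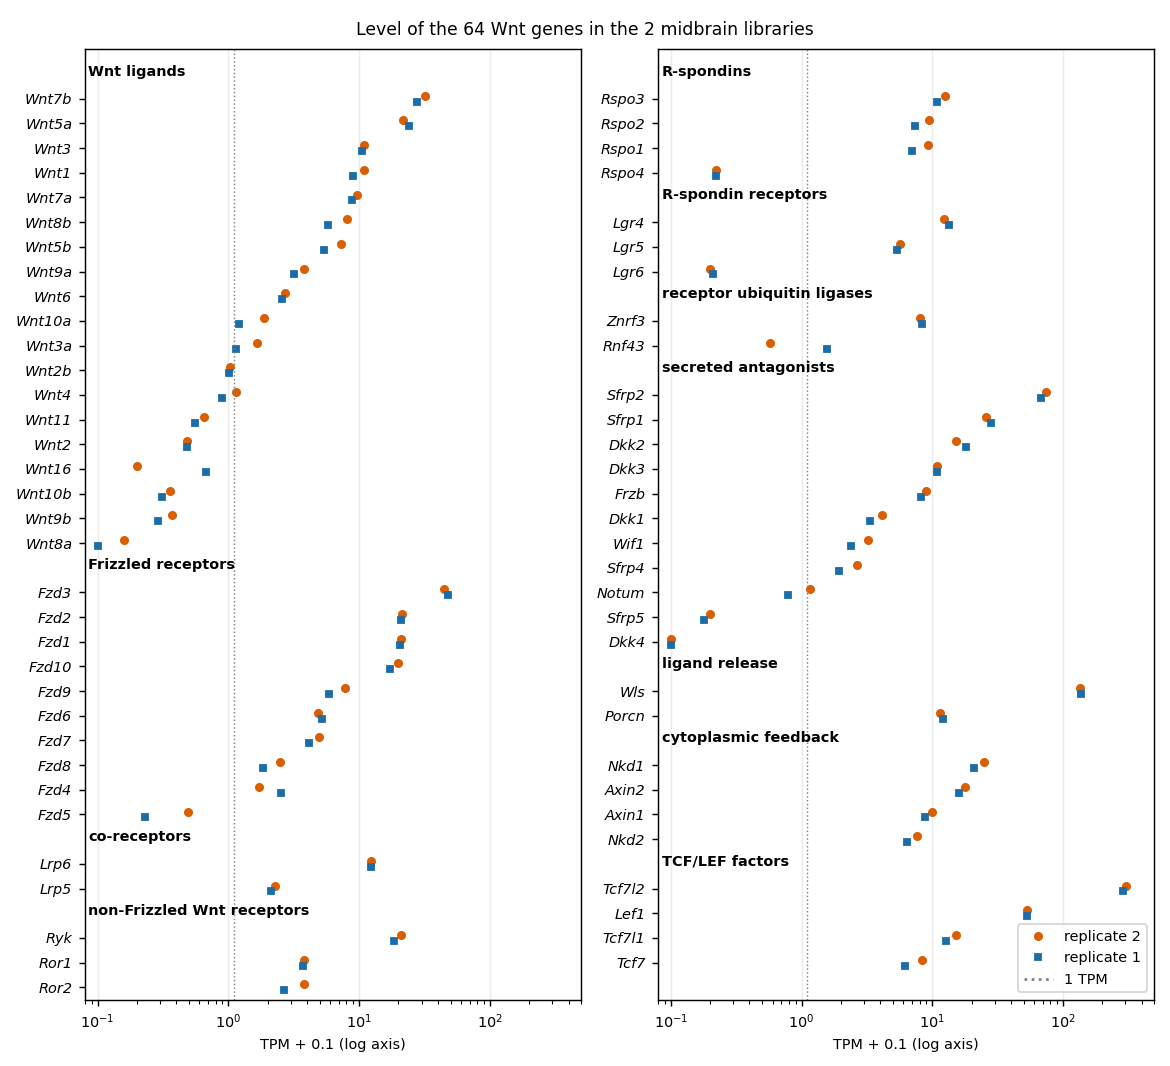
Level of each of the 64 genes as TPM + 0.1 on a log axis, grouped by class; orange circles are replicate 2, blue squares are replicate 1, and the dotted line marks 1 TPM. Tcf7l2 and Wls lie far to the right of the other genes, and the ligands spread from Wnt7b at 31.9 and 27.5 TPM (replicates 2 and 1) down to Wnt8a at 0.06 and 0 TPM.

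Wnt7b and Wnt5a were the highest ligands. Wnt7b, a ligand known for its part in vessel growth into the brain, had 31.9 TPM in replicate 2 and 27.5 TPM in replicate 1. Wnt5a, the best known ligand of β-catenin-independent signalling and a product of the midbrain floor plate, had 21.5 TPM in replicate 2 and 23.9 TPM in replicate 1. Together these ligands made up 27.7 ± 0.859% and 21.3 ± 3.21% of the summed ligand TPM (SD, n = 2 each). The deposited interval bounds of Wnt7b and Wnt5a did not lie apart in both libraries, so their order was not settled, whereas those of Wnt5a lay above those of the next ligand, Wnt3, in both.

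Wnt3, Wnt1 and Wnt7a followed closely. Wnt3, a ligand of the β-catenin branch, had 10.9 TPM in replicate 2 and 10.5 TPM in replicate 1. Wnt1 had 10.8 TPM in replicate 2 and 8.85 TPM in replicate 1, from 788 and 540 expected counts. Wnt7a had 9.51 TPM in replicate 2 and 8.70 TPM in replicate 1. Between Wnt3 and Wnt1, and between Wnt1 and Wnt7a, the intervals overlapped in at least 1 library. Wnt7b was 3.23-fold higher than its close relative Wnt7a (log2 ratio of TPM + 0.1 of 1.69 ± 0.06, SD, n = 2) and 3.01-fold higher than Wnt1. Wnt5a was 2.30-fold higher than Wnt1 and 3.66-fold higher than Wnt5b, and its intervals lay above theirs in both libraries.

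Wnt8b had 7.99 TPM in replicate 2 and 5.71 TPM in replicate 1, and Wnt5b 7.13 and 5.25 TPM, in the same order. Wnt9a stood at 3.67 TPM in replicate 2 and 3.06 TPM in replicate 1, Wnt6 at 2.60 and 2.48 TPM, Wnt10a at 1.77 and 1.11 TPM and Wnt3a at 1.57 and 1.05 TPM, all in that order. Wnt3a, known from the dorsal midline of the neural tube, was thus far below Wnt3 and Wnt1, with its intervals under theirs in both libraries. Wnt2b had 0.93 TPM in replicate 2 and 0.92 TPM in replicate 1, and Wnt4 had 1.04 and 0.79 TPM, in the same order.

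Wnt11, Wnt2, Wnt16, Wnt10b and Wnt9b each averaged between 0.230 and 0.505 TPM. Wnt8a, a ligand of the early embryo, had 3 expected counts in replicate 2 and 0 in replicate 1. A count of 0 allows up to 3 counts, or 0.0653 CPM (counts scaled by the library total) in replicate 2 and 0.0772 CPM in replicate 1, and such limits and the deposited intervals cover counting error only, because the cited protocol amplifies cDNA. Of the 18 steps between neighbouring ligands in order of mean level, 4 were separated by their intervals in both libraries, and none of the steps from Wnt9a down to Wnt9b was among the 4.

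In 4 places a pair of Wnt genes are neighbours in the genome, within 100 kb of each other. In all but 1 of these pairs the intervals lay apart in both libraries. Wnt1 (chromosome 15, 98789857 to 98793837, plus strand, mm10) and Wnt10b (98770712 to 98778150, minus strand) point away from each other across 11.7 kb. Wnt1 averaged 9.82 ± 1.38 TPM and Wnt10b 0.235 ± 0.0354 TPM (SD, n = 2). Wnt3 and Wnt9b on chromosome 11 lie 24.3 kb apart, also on opposite strands, and averaged 10.7 ± 0.283 and 0.230 ± 0.0566 TPM. Wnt9a and Wnt3a, 16.2 kb apart elsewhere on chromosome 11, averaged 3.37 ± 0.431 and 1.31 ± 0.368 TPM. The intervals of these 3 pairs lay apart in both libraries. Those of Wnt6 and Wnt10a, 6.19 kb apart on chromosome 1 and on the same strand, did not, with 2.54 ± 0.0849 and 1.44 ± 0.467 TPM.

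The 250 bases upstream of the start sites of Wnt1 and Wnt10b, from RefSeq on GRCm38.p6, are shown because these neighbours differ so much in level. They are written 5′ to 3′ on each gene's own strand, with every CpG in capitals. The Wnt1 stretch is chr15:98789607-98789856 on the plus strand, and the Wnt10b stretch is chr15:98778151-98778400 on the minus strand.
Wnt1 promoter: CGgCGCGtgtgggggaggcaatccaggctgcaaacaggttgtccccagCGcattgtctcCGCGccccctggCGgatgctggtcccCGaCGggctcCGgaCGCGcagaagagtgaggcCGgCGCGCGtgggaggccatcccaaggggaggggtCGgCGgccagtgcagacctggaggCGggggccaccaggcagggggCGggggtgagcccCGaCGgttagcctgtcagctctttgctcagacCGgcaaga
Wnt10b promoter: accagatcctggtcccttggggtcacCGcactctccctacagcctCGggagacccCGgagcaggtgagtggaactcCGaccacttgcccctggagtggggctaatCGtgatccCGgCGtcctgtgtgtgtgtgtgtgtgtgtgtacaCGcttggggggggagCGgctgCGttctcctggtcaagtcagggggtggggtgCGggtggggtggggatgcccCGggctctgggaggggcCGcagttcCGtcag
The Wnt1 stretch held 23 CpG at 71.6% G and C, and the Wnt10b stretch held 14 CpG at 66.8%. Both exceeded the median over all 32851 RefSeq promoters, which was 6 CpG and 52.4% G and C. The same held for the Wnt genes at large. By symbol, 43 of the 64 were matched to the RefSeq promoters used here, with 52 windows in all, and the others were not examined. The median window held 16.5 CpG at 65.2% G and C in those 250 bases. Among hardly detected genes, Rspo4 had 24 CpG at 0.12 TPM and Wnt9b 22 CpG at 0.230 TPM. Wls, at 135 TPM, had 8 CpG, below the median of the Wnt genes and above that of all promoters. Other genes went the other way: Tcf7l2, at 296 TPM, had 30 CpG in its upstream window. Rnf43, at 0.975 TPM, had windows with 8 and 2 CpG. These are single examples, and a relation of CpG count to level was not tested. The letters CTTTGAT, the core of the sequence that TCF/LEF factors bind, were searched on both strands of the whole windows, from 250 bases before to 50 after the start. They occurred in 1 window each of Wnt5b and Wnt11, which is 3.85% of the 52 windows against 3.73% of all promoters. The Wnt1 and Wnt10b windows did not hold these letters.

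The release of Wnts depends on Porcn, the enzyme that attaches the lipid, and on Wls, the carrier that takes the modified Wnt to the cell surface. Wls was the second highest of all 64 genes, at 134 TPM in replicate 2 and 137 TPM in replicate 1. Porcn had 11.3 TPM in replicate 2 and 12.1 TPM in replicate 1. The ratio of Wls over Porcn was 11.5-fold (log2 3.53 ± 0.05, SD, n = 2). Wls had 13780 expected counts in replicate 2 and 11716 in replicate 1 and alone exceeded the summed TPM of all 19 ligands, which was 112.9 TPM in replicate 2 and 101.7 TPM in replicate 1.

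Fzd3 led the Frizzled receptors. Fzd3, known in mice for the guidance of axons, had 44.8 TPM in replicate 2 and 47.7 TPM in replicate 1, and held 36.6 ± 2.22% of the summed Frizzled TPM (SD, n = 2). Fzd2 had 21.03 TPM in replicate 2 and 20.6 TPM in replicate 1, Fzd1 had 20.8 and 20.4 TPM, and Fzd10 had 19.7 and 17.1 TPM, in the same order. Fzd2 and Fzd1 were not separated, with a log2 ratio of 0.02 in either library. Fzd3 was 9.26-fold higher than Fzd6, with which it shares its polarity functions, and Fzd10 was 2.74-fold higher than Fzd9.

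The other Frizzled receptors were lower. Fzd9 had 7.64 TPM in replicate 2 and 5.77 TPM in replicate 1, Fzd6 had 4.72 and 5.08 TPM, Fzd7 had 4.83 and 4.06 TPM, Fzd8 had 2.38 and 1.73 TPM, and Fzd4 had 1.60 and 2.41 TPM, all in that order. Fzd5 was lowest, at 0.39 TPM in replicate 2 and 0.13 TPM in replicate 1. Fzd7 was thus 4.62-fold below Fzd2, a member of the same subfamily (Fzd7 over Fzd2: log2 -2.21 ± 0.15, SD, n = 2).

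Lrp6 was the main co-receptor. Lrp6 had 12.3 TPM in replicate 2 and 12.1 TPM in replicate 1, Lrp5 2.19 and 2.02 TPM, in the same order, and Lrp6 was 5.59-fold higher (log2 2.48 ± 0.07, SD, n = 2). Among the receptors outside the Frizzled family Ryk, a receptor in axon guidance, had 20.9 TPM in replicate 2 and 18.4 TPM in replicate 1. Ror1 and Ror2, receptor tyrosine kinases that respond to Wnt5a, had 3.68 and 3.66 TPM in replicate 2, against 3.64 and 2.58 TPM in replicate 1. They were not separated from each other in both libraries.

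R-spondins raise the Wnt response by removing the ubiquitin ligases Znrf3 and Rnf43, which clear Frizzled receptors from the membrane, and they do so through Lgr4, Lgr5 and Lgr6. Rspo3 had 12.4 TPM in replicate 2 and 10.8 TPM in replicate 1, Rspo2 had 9.41 and 7.24 TPM and Rspo1 had 9.12 and 6.85 TPM, in the same order, while Rspo4 had 0.12 TPM in each. Rspo3 was 1.46-fold higher than Rspo1 and lay above Rspo2 as well, whereas Rspo2 and Rspo1 were not separated. Lgr4 had 12.2 TPM in replicate 2 and 13.4 TPM in replicate 1 and was 2.33-fold higher than Lgr5, which had 5.58 and 5.29 TPM, in the same order (Lgr5 over Lgr4: log2 -1.22 ± 0.15, SD, n = 2). Lgr6 had 0.10 TPM in replicate 2 and 0.11 TPM in replicate 1. Znrf3 had 8.01 TPM in replicate 2 and 8.21 TPM in replicate 1. Rnf43 had 0.47 TPM in replicate 2 and 1.48 TPM in replicate 1, but 53 and 60 expected counts, in the same order. The 0.47 TPM of replicate 2 lay below its own deposited interval of 0.565 to 1.45 TPM. By the posterior mean Rnf43 had 0.97 TPM in replicate 2 and 1.98 TPM in replicate 1. The estimated mix of its transcripts differed: Rnf43-207, a noncoding transcript of 364 nt, was given 0% of the gene's transcripts in replicate 2 and 55.1% in replicate 1, where 5.79 expected counts stood behind it.

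Sfrp2 was the most abundant antagonist. The Sfrp proteins and Frzb bind Wnts outside the cell, and Sfrp2 had 74.1 TPM in replicate 2 and 67.4 TPM in replicate 1, which is 49.5 ± 2.20% of the antagonists' TPM (SD, n = 2). Sfrp1 had 25.6 TPM in replicate 2 and 28.0 TPM in replicate 1, and Sfrp2 exceeded it 2.63-fold (Sfrp1 over Sfrp2: log2 -1.40 ± 0.19, SD, n = 2). Frzb had 8.86 TPM in replicate 2 and 8.17 TPM in replicate 1, and Sfrp4 had 2.54 and 1.83 TPM, in the same order. Sfrp5 had 0.10 TPM in replicate 2 and 0.08 TPM in replicate 1, from 6 and 4 expected counts. Members of this small family thus averaged between 0.0900 TPM for Sfrp5 and 70.7 TPM for Sfrp2.

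The Dkk proteins bind Lrp5 and Lrp6, except Dkk3, a divergent member. Dkk2 had 15.1 TPM in replicate 2 and 18.2 TPM in replicate 1, Dkk3 had 10.7 TPM in each, and Dkk1 had 4.0 TPM in replicate 2 and 3.24 TPM in replicate 1. Dkk1 lay below Dkk2 in both libraries (log2 ratio of Dkk1 over Dkk2 -2.17 ± 0.40, SD, n = 2). Dkk4 had 0 counts in both libraries. Wif1, which binds Wnts, had 3.13 TPM in replicate 2 and 2.27 TPM in replicate 1. Notum, the enzyme that removes the lipid from Wnts, had 1.07 TPM in replicate 2 and 0.69 TPM in replicate 1.

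The genes that Wnt signalling itself induces in many tissues were expressed. Axin2, a scaffold of β-catenin breakdown and a widely used reporter of the pathway, had 17.7 TPM in replicate 2 and 15.8 TPM in replicate 1, and was 1.80-fold higher than Axin1 (log2 0.85 ± 0.01, SD, n = 2), the constitutive scaffold. Nkd1, an inhibitor that binds Dishevelled, had 24.7 TPM in replicate 2 and 20.7 TPM in replicate 1, and was 3.25-fold higher than Nkd2. Axin1 had 9.84 TPM in replicate 2 and 8.67 TPM in replicate 1, and Nkd2 had 7.48 and 6.36 TPM, in the same order. All 3 steps in this class, from Nkd1 to Axin2, Axin1 and Nkd2, were separated in both libraries.

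Tcf7l2 dominated the TCF/LEF factors. It had 305 TPM in replicate 2 and 287 TPM in replicate 1, which placed it at rank 431 of the 21474 protein-coding genes by mean level. It is known as a factor of the thalamus, pretectum and midbrain roof. Lef1 had 52.8 TPM in replicate 2 and 53.0 TPM in replicate 1, Tcf7l1, mostly a repressor, had 15.2 and 12.7 TPM, and Tcf7 had 8.22 and 6.08 TPM, in the same order. Tcf7l2 made up 80.0 ± 0.0259% of the summed TPM of the 4 factors (SD, n = 2), and was 5.58-fold higher than Lef1 and 21.1-fold higher than Tcf7l1.

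A set of 36 pairs of related or often compared genes was chosen with earlier results of these data known. The intervals lay apart in the same direction in both libraries for 34 of these pairs. The exceptions were Fzd2 with Fzd1 and Ror2 with Ror1. With 2 libraries a sign-flip test over libraries cannot give a p below 0.5, so no p is given for these ratios. In 31 of the 36 pairs the levels differed at least 2-fold on the TPM + 0.1 scale. These counts describe the chosen pairs only. Of the 53 steps between genes next to each other in mean level within a class, 28 were separated in both libraries.

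**Figure D2:**
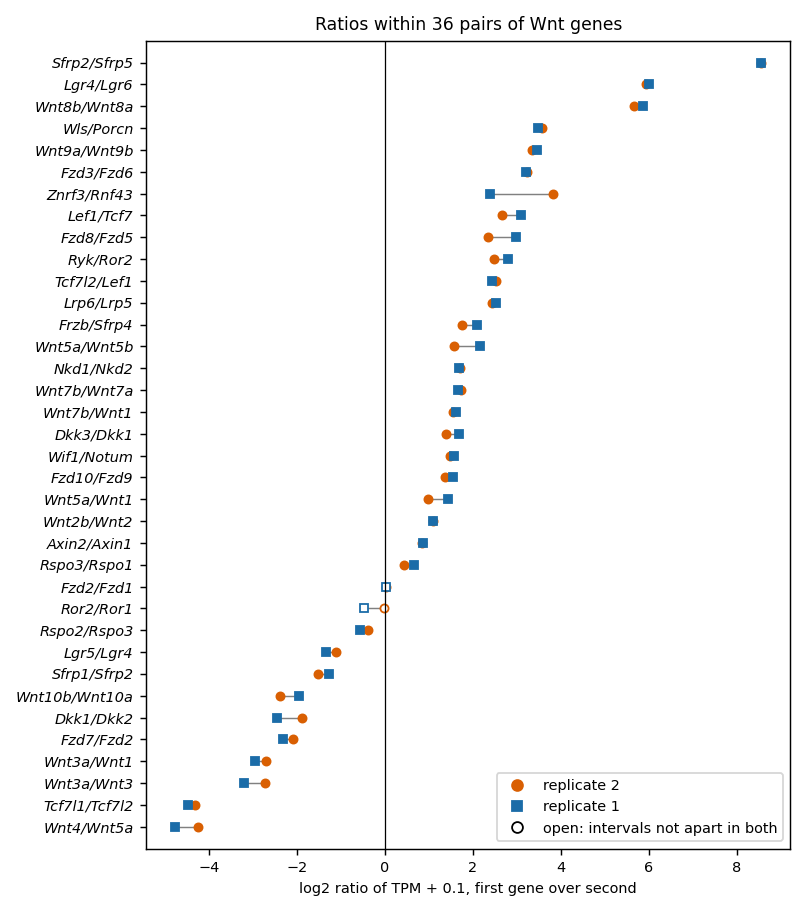
Log2 ratio of TPM + 0.1 within each of 36 pairs of genes, first gene over second, with replicate 2 as orange circles and replicate 1 as blue squares joined by a line; open symbols mark pairs whose deposited intervals did not lie apart in both libraries. Most lines are short beside the distance from 0, the longest being Znrf3 over Rnf43 with 3.83 in replicate 2 and 2.39 in replicate 1.

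Tcf7l2 is annotated with 22 transcripts, and its deposited transcript shares were close in the 2 libraries. Tcf7l2-209 led with 46.5% in replicate 2 and 48.0% in replicate 1. Transcripts that begin coding in the first exon (chromosome 19, 55742342 to 55742530, mm10), which encodes the β-catenin-binding end of the protein, made up 60.6 ± 1.38% (SD, n = 2). Transcripts that start coding further inside the gene, and so lack that end, were Tcf7l2-218 with 12.6 ± 0.113%, Tcf7l2-203 with 9.88 ± 0.552% and Tcf7l2-221 with 0.440 ± 0.0990%. Tcf7l2-218 also ends coding early, at 55918966, ahead of the tail exons described below. Tcf7l2-218 rested on 782 expected counts in replicate 2 and 606 in replicate 1, on an annotated length of 729 nt, and Tcf7l2-203 on 2748 and 1997, in the same order. Transcripts not annotated as protein-coding made up 16.5 ± 0.615%.

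RefSeq gives Tcf7l2 a start site before the first exon and another inside the gene. The 250 bases upstream of each are shown because transcripts whose coding begins downstream of each start were counted. Tcf7l2-218 begins coding at 55894729, ahead of the internal start site, so it does not start there. The upstream stretch is chr19:55741560-55741809 and the internal one chr19:55895071-55895320, both on the plus strand of GRCm38.p6, with every CpG in capitals.
Tcf7l2 upstream promoter: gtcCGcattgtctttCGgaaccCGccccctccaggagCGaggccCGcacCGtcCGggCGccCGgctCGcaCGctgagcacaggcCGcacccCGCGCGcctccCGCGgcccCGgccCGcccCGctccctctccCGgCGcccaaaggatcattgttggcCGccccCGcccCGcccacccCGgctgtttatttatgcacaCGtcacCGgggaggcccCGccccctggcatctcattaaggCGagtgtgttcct
Tcf7l2 internal promoter: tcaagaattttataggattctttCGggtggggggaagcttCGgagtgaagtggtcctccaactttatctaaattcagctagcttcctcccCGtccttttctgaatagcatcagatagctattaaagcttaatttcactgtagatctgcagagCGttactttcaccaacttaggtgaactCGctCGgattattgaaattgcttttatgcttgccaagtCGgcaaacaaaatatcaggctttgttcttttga
The upstream stretch held 30 CpG at 72.8% G and C, and the internal one 7 CpG at 40.8%. The internal RefSeq start lies 189 bases from the nearest start annotated in GENCODE, that of Tcf7l2-203, and the upstream one lies 10 bases from its nearest. Neither window held the letters CTTTGAT.

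Near the end of the coding region Tcf7l2 has alternative exons that set the tail of the protein, of which the long form carries binding sites for the corepressor CtBP. They are called A, B and C here. Exon A (chr19:55924530-55924580) was included in 91.4 ± 0.245% of the transcripts that span it, exon B (chr19:55925977-55926049) in 91.5 ± 0.523%, and exon C in its full length (chr19:55926682-55926756) in 0% in both libraries (SD, n = 2). A form of exon C that starts 2 bases further in, at 55926684, is part of Tcf7l2-222, was not counted in that 0%, and belongs to 2.96 ± 0.0212% of the gene's transcripts (586 expected counts in replicate 2 and 456 in replicate 1). The sequences are shown because B and C resemble each other, and capitals in B and C mark bases that are identical between them.
Tcf7l2 tail exon A: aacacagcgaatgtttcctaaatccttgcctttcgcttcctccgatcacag
Tcf7l2 tail exon B: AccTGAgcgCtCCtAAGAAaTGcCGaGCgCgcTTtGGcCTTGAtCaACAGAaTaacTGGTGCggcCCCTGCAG
Tcf7l2 tail exon C: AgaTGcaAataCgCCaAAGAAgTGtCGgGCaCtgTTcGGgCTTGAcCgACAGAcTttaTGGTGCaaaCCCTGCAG
Of the 73 aligned bases of B and C, 49 were identical (67.1%). Coding ended 4 bases into the exon after C in 57.6 ± 0.460% of the gene's transcripts, by share of TPM, while the forms with the longest last coding exon, 421 bases, made up 3.96 ± 0.0495%. An exon near the front of the gene, of 69 bases (chr19:55755014-55755082), was included in 5.16 ± 0.271% of the transcripts that span it.

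Lef1 had a skipped exon and 2 ends. Its 84-base exon (chr3:131191023-131191106) was included in 1.36 ± 0.240% of the transcripts that span it (SD, n = 2). Lgr4 has a 72-base exon (chr2:109970692-109970763) that went the other way, included in 90.1% in replicate 2 and 73.3% in replicate 1. Both exons are shown for the contrast between a mostly skipped and a mostly included exon.
Lef1 cassette exon: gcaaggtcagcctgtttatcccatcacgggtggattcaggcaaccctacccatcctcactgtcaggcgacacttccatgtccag
Lgr4 cassette exon: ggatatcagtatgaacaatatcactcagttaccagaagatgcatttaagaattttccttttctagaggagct
Lef1-204, with its own last coding exon, made up 58.3% of Lef1 transcripts in replicate 2 and 50.01% in replicate 1, and the transcripts with the other last exon 37.2% and 46.2%, in the same order. Lef1-204 thus led in both libraries, by a margin that differed between them.

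Wnt5a used 2 first coding exons. Wnt5a-202 made up 49.95% of the gene's transcripts in replicate 2 and 45.1% in replicate 1, and Wnt5a-201 38.93% and 36.02%, in the same order. Ryk-201 and Ryk-203, with 1773 and 1782 coding bases, had 45.5% and 43.5% in replicate 2 and 53.1% and 35.0% in replicate 1. Porcn-201 had 64.2% in replicate 2 and 48.6% in replicate 1. Over the 29 genes with at least 2 annotated transcripts and 1 TPM in both libraries, 28 had the same leading transcript in both, against 91.4% of 9585 genes. The exception was Wnt5b. Wnt5b-203 had 70.4% of its transcripts in replicate 2 and 35.4% in replicate 1, where Wnt5b-202 led narrowly with 35.7%. By the posterior mean TPM, Wnt5b-204 led in replicate 1 with 43.2%, and Wnt5b-203 led in replicate 2 with 50.8%. The TPM intervals of Wnt5b-202, Wnt5b-203 and Wnt5b-204 overlapped in replicate 1, so the leader there was not settled. All these shares are estimates for overlapping transcripts, and apart from Wnt5b their error was read from the spread of the libraries alone.

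**Figure D3:**
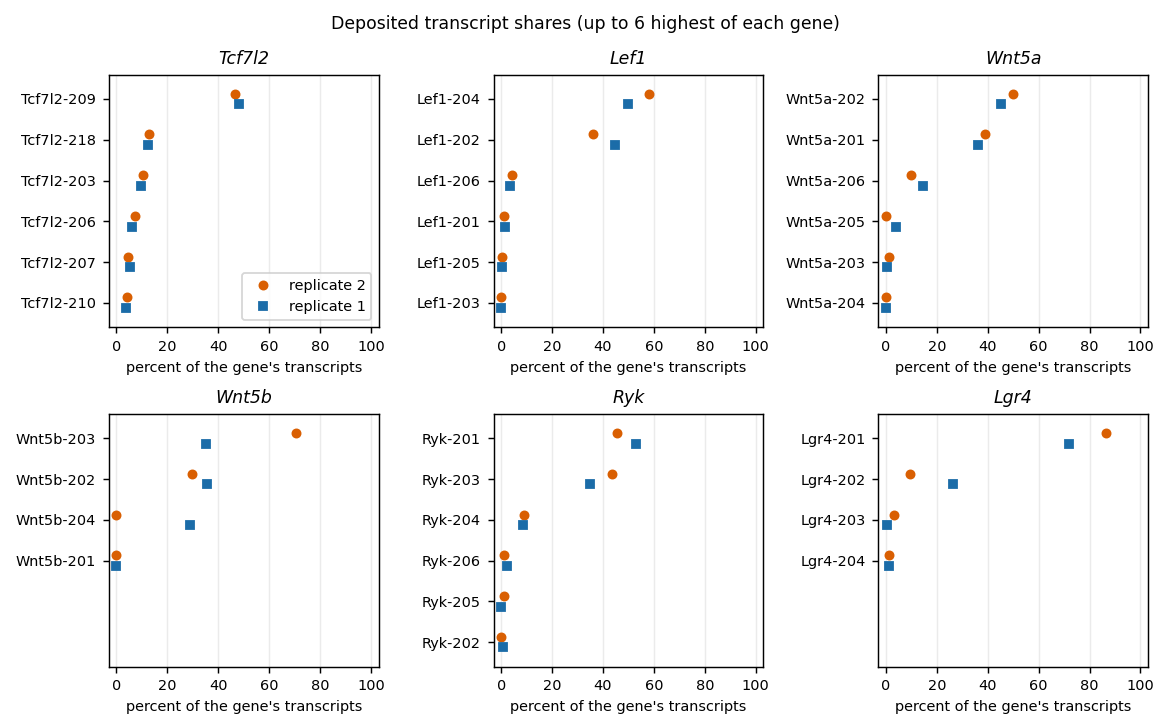
Deposited percent of each gene's transcripts for up to 6 transcripts of Tcf7l2, Lef1, Wnt5a, Wnt5b, Ryk and Lgr4, with replicate 2 as orange circles and replicate 1 as blue squares. The symbols of the 2 libraries nearly coincide for Tcf7l2, and lie far apart for Wnt5b-203 at 70.4% in replicate 2 and 35.4% in replicate 1. The deposited TPM intervals of Wnt5b-203 overlapped between the libraries.

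The other genes of the pathway, 72 in 5 lists, were mostly present: 65 reached 1 TPM in both libraries. All 18 genes of the cytoplasmic core did so, led by Ctnnb1, which encodes β-catenin, with 616 TPM in replicate 2 and 626 TPM in replicate 1, by Csnk1a1 with 260 and 278 TPM, in the same order, and by Csnk1e with 137 and 131 TPM. These last 2 genes encode casein kinases. The 13 nuclear cofactors were led by the corepressor genes Ctbp1 (342 TPM in replicate 2 and 312 TPM in replicate 1) and Aes (224 and 212 TPM, in the same order) and by the histone deacetylase gene Hdac1 (180 and 172 TPM). Of 16 extracellular and membrane modulators 14 reached 1 TPM, led by Gpc3, a glypican, with 173 TPM in replicate 2 and 192 TPM in replicate 1, Cthrc1 with 63.7 and 67.9 TPM and Tspan12 with 40.5 and 48.9 TPM, in the same order. Of 15 planar cell polarity genes 12 did, with Celsr2 (49.2 ± 2.12 TPM), Vangl2 (38.0 ± 2.19 TPM) and Scrib (17.3 ± 2.14 TPM) on top (SD, n = 2). Of 10 genes that Wnt signalling induces in many tissues 8 did, with Ccnd1 (207 ± 3.34 TPM), Msx1 (74.3 ± 8.31 TPM) and Tnfrsf19 (42.7 ± 1.30 TPM) on top.

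The 2 libraries were compared gene by gene with a two-sided exact binomial test on the counts, adjusted by Benjamini-Hochberg over all 17148 genes with at least 20 counts in all. Requiring an adjusted p under 0.05 and a 2-fold difference, 2.94% of all genes differed and 1 of the 59 Wnt genes tested did, Fzd5. Its 71 counts in replicate 2, against 24 in replicate 1, gave a log2 ratio of 1.28 (adjusted p = 3.22e-04, exact binomial test). The other 5 genes, Wnt8a, Wnt16, Rspo4, Sfrp5 and Dkk4, had too few counts to be tested. Of the 70 other pathway genes tested, 0 were called, while 44 had an unadjusted p under 0.05 in this exact test, against 44.0% of all genes, and 42 an adjusted p under 0.05, against 35.5%, 30 of them higher and 12 lower in replicate 2. In edgeR's exact test, described next, 2 of the 70 had an unadjusted p under 0.05 and 0 an adjusted one.

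Without the 2-fold minimum, 27 Wnt genes were higher in replicate 2 and 5 were lower, out of 59, against 18.3% and 17.2% of all genes tested. With the libraries scaled by their spike-in counts instead of TMM, 33 were higher and 2 lower, against 28.4% and 10.2% of all genes. The median log2 ratio of replicate 2 over replicate 1 was 0.20 over the 59 genes and 0.01 over all genes. Among the ligands 6 of 17 were higher and 0 lower. Of these, Wnt8b (839 counts in replicate 2 and 501 in replicate 1, log2 0.49) and Wnt5b (496 and 305, log2 0.45) still passed the exact binomial test when a trend of the ratio with base composition and length, described next, was removed (adjusted p = 5.09e-07 and 0.0158). The other 4 did not: without the trend, the log2 ratio was 0.14 for Wnt1 (0.30 with it), 0.07 for Wnt7b (0.23 with it), 0.12 for Wnt7a (0.20 with it) and 0.47 for Wnt3a (0.58 with it), with adjusted p between 0.0708 and 0.248 in the exact test. All 3 R-spondins tested were higher, with log2 ratios of 0.39 for Rspo2, 0.42 for Rspo1 and 0.20 for Rspo3. Axin2, Nkd1 and Nkd2 were higher too, with log2 ratios of 0.20, 0.26 and 0.25, of which that of Axin2 no longer passed the exact test without the trend (log2 0.13, adjusted p = 0.0715). The 5 lower genes were Fzd4 (184 counts in replicate 2 and 231 in replicate 1, log2 -0.57), Dkk2 (log2 -0.25), Lgr4 (log2 -0.16), Sfrp1 (log2 -0.12) and Fzd3 (log2 -0.08). In the exact test Lgr4 did not pass with spike-in scaling (adjusted p = 0.0799) or without the trend (0.0734), Sfrp1 did not pass with spike-in scaling (0.146), and Fzd3 did not pass with spike-in scaling (0.561) or without the trend, where its log2 ratio was 0.02.

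By the deposited intervals of TPM, 19 of the 64 genes lay wholly higher in replicate 2 and 3 wholly lower, and over all protein-coding genes 15.2% lay apart in one direction or the other. These sets differ in level: 76.6% of the 64 genes reached 1 TPM in both libraries, against 58.2% of all protein-coding genes. The binomial test takes reads as the only source of error. When a coefficient of variation of 0.1 between libraries was assumed in edgeR's exact test, 0 of the 59 Wnt genes passed an adjusted p of 0.05, against 0.962% of all genes, and the smallest adjusted p among them was 0.0786. In that test 7 of the 59 had an unadjusted p under 0.05, against 6.46% of all genes. When the trend of the ratio with G and C content and transcript length was removed, an alternative chosen after the data were seen, 18 Wnt genes were higher and 3 lower, against 13.5% and 13.3% of all genes, and the median over the 59 fell to 0.12 on the log2 scale.

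Values set beside the difference between the libraries were as follows. The most abundant transcripts of the 64 genes had a median G and C content of 53.6%, against 50.2% over all genes tested. Of the 7 markers of the midbrain and its hindbrain border, whose median log2 ratio was 0.05, Fgf8 (0.47) and En1 (0.36) were higher in replicate 2 and Pax3 (-0.10) was lower, with adjusted p of 0.00477, 0.00211 and 0.0218 in the exact binomial test. The other 4 did not pass it, with log2 ratios of 0.30 for En2, 0.05 for Cnpy1, 0.03 for Otx2 and -0.15 for Pax7. Of the forebrain markers named above, Six3 (-0.62) and Dlx1 (-0.28) were lower in replicate 2 and Lhx2 (0.13) was higher. Their adjusted p was 5.02e-10, 0.00131 and 0.00345 in the exact binomial test, which Emx2 (0.10) did not pass. The median log2 ratio was 0.11 over the 4 neural progenitor markers, -0.05 over the 3 neuron markers, -0.05 over the 6 mesenchyme markers, -0.05 over the 5 endothelial markers and 0.01 over the 5 erythroid markers. The progenitor markers Hes5 (0.24) and Nes (0.21) were higher in replicate 2 and passed the exact binomial test, while Vim (0.01) and Sox2 did not. The neuron markers went both ways, with log2 ratios of -0.30 for Dcx, -0.05 for Stmn2 and 0.14 for Tubb3. Each had an adjusted p under 0.05 in the exact binomial test, as did 35.5% of all genes tested. Whether the markers named here passed more often than other genes with similar counts was not tested. The part of base composition, of the dissection border and of cell makeup in the difference between the libraries was not tested.

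**Figure D4:**
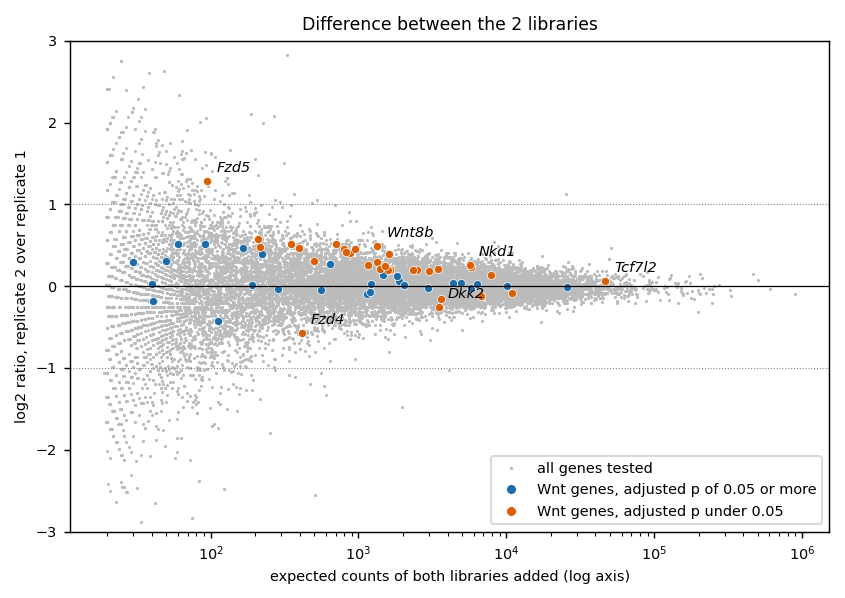
Log2 ratio of replicate 2 over replicate 1 against the added expected counts (log axis) for all 17148 genes tested (grey) and the 59 Wnt genes tested, orange where the adjusted p of the exact binomial test was under 0.05 and blue otherwise; dotted lines mark 2-fold, and 48 genes lie beyond the vertical range. Fzd5 is the only Wnt gene above the 2-fold line, and most of the Wnt genes lie above 0 at a small distance.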

How the data were processed

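The deposited gene and transcript tables of both libraries were used. Per the labels, extraction was by mirVana, and libraries were made by a cited Smart-seq protocol from 10 ng of RNA over 200 nt, with ERCC spike-ins. The assembly was mm10 and the annotation M4 per the accompanying notes; for the aligner, quantifier and strand setting, details were not given in the sources used here, and genes overlapping an antisense gene are uncertain for that reason.

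Values deposited per gene were, per the file headers, an expected count, TPM (maximum likelihood and posterior mean) and FPKM. Both TPM and FPKM take in every row of a table, and the spike-ins took 14.8% of TPM in replicate 2 and 15.2% in replicate 1. Lower and upper bounds of TPM, also deposited, were read as a signal without a fixed total, at a confidence level that no source names. The deposited transcript tables give each transcript's percent of its gene. The 97 spike-in rows and the rows with numeric identifiers (26248) entered neither library sizes nor tests.

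Symbols, types and coordinates came from GENCODE M21 (mm10, a later annotation); 42462 of the 43346 genes matched. Expected counts were rounded, scaled with TMM in edgeR 4.0.16 and compared with an exact binomial test in scipy 1.17.1 (prior count 1 for log2 ratios); the test was checked on simulated counts. edgeR's quasi-likelihood test could not be used with 1 library a side. 4 genes, Sfrp2, Wnt5a, Axin2 and Notum, had fractional counts, that is, reads shared with other genes. Exon sequences were taken from the transcripts of GENCODE M21 and promoters from RefSeq (GRCm38.p6). Protein sequences were not analysed here. A pair or a step in an order is called separated where the interval of one gene lies wholly above that of the other in both libraries. Members, lists, pairs and the rule for named genes were chosen with earlier results of these data known. That rule allows any of the 64 genes, the listed markers and, of the other pathway genes, the 3 highest of each list and any called between the libraries. The labels do not say whether the 2 pools were collected apart, so p-values may measure technical spread. Of the marker lists, 1 gene is not reported here.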

Additional observations from a re-analysis of the deposited data

How the results depend on the processing

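The count of genes at 1 TPM, of separated pairs and of leading transcripts shared by the libraries stayed within 1.5 times of the reported values under all their alternatives. Without replicate 1 or 2 the genes at 1 TPM numbered 50 to 51, the separated pairs 34 in either case and the median level 7.56 to 5.74 TPM. With the genes under 1 TPM left out, the median was 9.11 TPM. The 505 genes called between the libraries became 154 with edgeR's exact test, 82 with at least 100 summed counts and 6090 with no 2-fold minimum. The Wnt genes called became 0, 0 and 32 in the same order; Fzd5 has 95 summed counts and is not among the genes of the second. The other pathway genes called became 42 with no 2-fold minimum, an alternative chosen after the data were seen. With the G and C and length trend removed, the log2 ratio was 0.02 for Fzd3 (-0.08 as reported) and 0.08 for Wls (-0.01 as reported). With spike-in scaling it was 0.04 for Wls. Wls passed the exact binomial test in both alternatives (adjusted p = 3.45e-04 and 0.0422). Other ratios near 0 also changed sign. Among them were Wnt5a (-0.02 as reported, 0.04 without the trend, 0.03 with spike-in scaling) and Fzd2 (0.04 as reported, -0.06 without the trend). The cause of these and the other changes was not tested. With TPM + 1 in place of TPM + 0.1, 11 of the 36 pair ratios moved by over 1.5 times, all with a gene of low level. Depth limits the genes under 20 summed counts, for which no comparison was made.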
